A study of Homo sapiens with 9 samples.

Results

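The 10 genes described here are IFIT1, IFIT2, IFIT3, IFIT5, IFITM1, IFITM3, IFI6, IFI27, IFI44 and IFI44L, taken by gene symbol from a table of 38019 genes. All 10 were present in the table and passed the filter on low values in every comparison. They were proposed with earlier results of these same libraries known, and their lower level in both knockdowns was part of that choice, so their values against shControl are given as a description. No p-value is given for these contrasts, and calls are counted only to set them beside the background.

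Transcripts were counted in 786-O, an established human cell line derived from clear cell kidney cancer, in which the tumour suppressor VHL is not functional. The cells had been transduced with lentivirus for a control short hairpin RNA (shControl, genotype labelled WT), a hairpin against ARNT (shARNT, ARNT knockdown) or a hairpin against BMAL1 (shBMAL1, BMAL1 knockdown), and all 3 groups were selected with puromycin. There were 3 libraries per group, given as biological replicates, and each target was lowered with 1 hairpin sequence, so an effect of the target and an effect of its hairpin cannot be told apart. The labels do not say whether the replicates were separate cultures, so p-values measure the spread between these libraries.

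ARNT and BMAL1 (listed in the table as ARNTL) are related transcription factors of the bHLH-PAS family, which bind DNA as pairs. The classical partners of ARNT are the HIF proteins, and that of BMAL1 is CLOCK, and members of the family can also pair in other ways. Type I and type III interferons bind receptors at the cell surface and activate the kinases JAK1 and TYK2. A complex that holds STAT2 and IRF9 then binds the interferon-stimulated response element (ISRE) and switches on interferon-stimulated genes (ISGs). These include many, but not all, of the IFIT, IFITM and IFI genes. Many ISGs are expressed at a low level without added interferon, and the labels name no interferon treatment of these cells.

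The ISRE core was searched for in the promoters of the 10 genes as the letters GAAANNGAA on both strands, in windows from 250 bases before to 50 bases after each transcription start (RefSeq, GRCh38.p14). The core was found in 8.11% of 35116 such windows. It was found in each of the 9 members that had an entry, and in 2 of 8 other family genes with one, IFI16 and IFIH1. IFIT2 had no entry. In the following stretches of 30 bases, read 5′ to 3′ on the strand of the gene, the match is in capitals, and TTC at its left end means that it lies on the opposite strand. One match per gene is shown, as the sequence feature that these promoters share.
IFIT1: ctagctttagtTTCACTTTCccctttcggt
IFIT3: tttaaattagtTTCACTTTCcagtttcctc
IFIT5: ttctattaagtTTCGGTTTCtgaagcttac
IFITM1: acaaacagcagGAAATAGAAacttaagaga
IFITM3: gaaactgttgaGAAACCGAAactactgggg
IFI6: gggagagagggGAAAATGAAactgcagagt
IFI27: atgtctgcagtTTCGGTTTCctggaaaatg
IFI44: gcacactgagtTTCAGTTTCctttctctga
IFI44L: ttcctagtgagGAAAAAGAAagttagtggc

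The IFIT1, IFIT3 and IFIT5 stretches lie on the plus strand at chr10:89392497-89392526, chr10:89327865-89327894 and chr10:89414513-89414542. Those of IFITM1 (plus strand, chr11:313989-314018) and IFITM3 (minus strand, chr11:320877-320906) are on the short arm of chromosome 11. On chromosome 1 are those of IFI6 (minus strand, chr1:27672289-27672318), IFI44 (plus strand, chr1:78649761-78649790) and IFI44L (plus strand, chr1:78620364-78620393). The IFI27 stretch is at chr14:94110618-94110647 on the plus strand, all on GRCh38.p14. The IFI44L promoter held the same 30 bases at 2 places, with the core ending 156 and 65 bases before the start. IFI6 held 3 matches, with cores that end 148, 107 and 85 bases before the start.

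**Figure D1:**
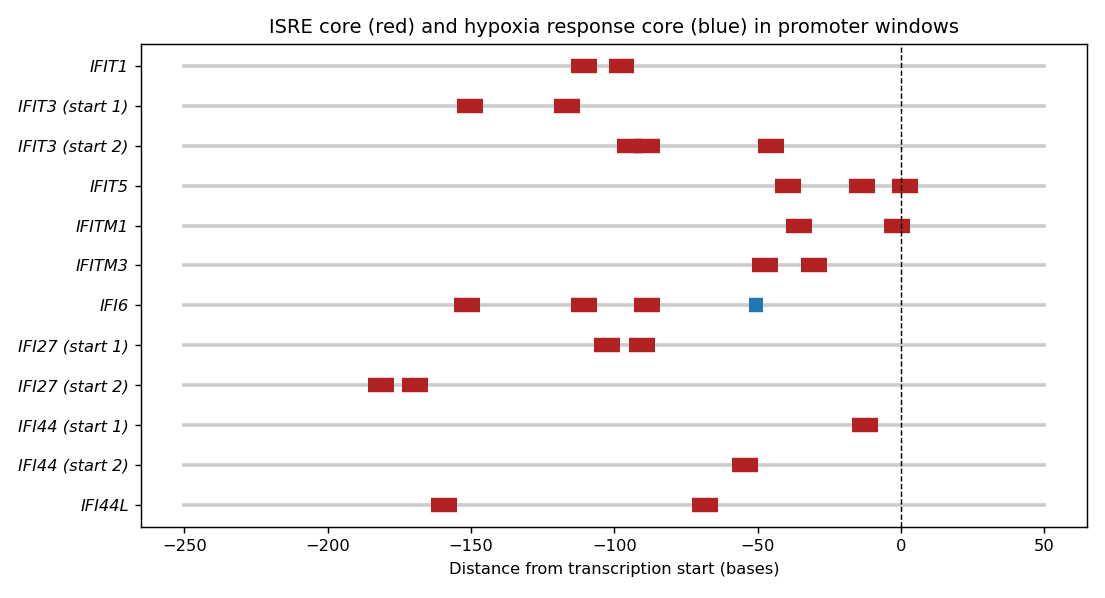
Positions of the ISRE core (red, GAAANNGAA on either strand) and of the hypoxia response core (blue, ACGTG) in the promoter windows of the 9 members with an entry, in bases from each annotated transcription start (dashed line at 0). Every window shown holds at least 1 ISRE core, and ACGTG was found in IFI6 alone among them.

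Letters that bHLH-PAS dimers are known to bind were searched for in the same windows. The E-box CACGTG, which BMAL1 with CLOCK binds, was in 7.26% of all windows and in 0 of the 9 members with an entry. The hypoxia response core ACGTG, which pairs that hold a HIF protein bind and which any CACGTG also holds, was in 21.4% of all windows. The form GCGTG of this core was not searched for. Among the members it was found in IFI6, in a window given here to show that single match.
IFI6 hypoxia core: tgcctagggtgagACGTGggaggatccaca

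This IFI6 match lies at chr1:27672229-27672258 (GRCh38.p14, minus strand) and ends 49 bases before the start. Of the 8 other family genes, IFI27L1 and IFI30 held ACGTG and IFI30 held CACGTG. A match or its absence describes the letters of these windows only, and binding was not measured.

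The libraries held 33793043 to 35444731 reads each. Genes encoded in mitochondria took 5.46% to 7.14% of reads in shControl, 7.59% to 8.74% in shARNT and 8.71% to 9.66% in shBMAL1, so this share was higher in the libraries in which the members were lower, and its part in the results was not tested. The targeted genes followed their labels. With shARNT, ARNT fell from a mean of 2352 normalised read counts to 1225, which is −0.94 on the log2 scale (SE 0.07, DESeq2 adjusted p = 8.83e-35), and ARNTL fell from 761 to 326 in shBMAL1, −1.23 (SE 0.11, DESeq2 adjusted p = 2.54e-25). Each hairpin also went with a smaller fall of the other target, by 0.26 for ARNTL under shARNT (DESeq2 adjusted p = 0.0294) and by 0.23 for ARNT under shBMAL1 (DESeq2 adjusted p = 0.0187) on the log2 scale. Both of these calls were lost without shControl replicate 2 (adjusted p = 0.150 and 0.162). The ARNTL call was also lost without shARNT replicate 3 (adjusted p = 0.214), and the ARNT call without shBMAL1 replicate 2 (adjusted p = 0.109). For protein, measured by immunoblot in 786-O cells, the paper instead describes slightly more ARNT after BMAL1 depletion and slightly more BMAL1 after ARNT depletion. Renal epithelial and carcinoma markers (7 genes) summed to 140930 to 144100 normalised counts in shControl, 147040 to 151120 in shARNT and 150750 to 159670 in shBMAL1. The higher sums come from CDH6, which rose under both hairpins (log2 changes of 1.01 and 1.72, DESeq2 adjusted p = 5.92e-78 and 9.01e-170). The other 6 summed to 127220 to 130640 in shControl, 119360 to 122200 in shARNT and 102810 to 115350 in shBMAL1, where PAX8 (−0.49), KRT18 (−0.40) and VIM (−0.21) were called lower (DESeq2 adjusted p = 1.73e-11, 8.59e-06 and 0.00448) and PAX2 (0.43) higher (DESeq2 adjusted p = 0.000193). Under shARNT, VIM (−0.18) was called lower and KRT8 (0.31) higher (DESeq2 adjusted p = 0.000118 and 7.68e-10). The part of these changes in the results was not tested. The 8 leukocyte markers summed to between 13.6 and 28 in any library, with CD3E, MS4A1, LYZ and TYROBP at 0 in all 9, and the 3 markers of plasmacytoid dendritic cells, the cells known for high interferon output, summed to 5.88 at most. The 3 endothelial markers summed to at most 8.95, with CDH5 at 0 in all 9 libraries. The 2 fibroblast markers summed to 143 to 164 in shControl, 115 to 133 in shARNT and 168 to 191 in shBMAL1. Of these 2, PDGFRA rose under shBMAL1 from a mean of 4.02 normalised counts to 36.5 (log2 change 3.18, SE 0.61, DESeq2 adjusted p = 2.04e-06). COL1A1 was called lower under shARNT (log2 change −0.41, DESeq2 adjusted p = 0.0993). Its mean was 149 normalised counts in shControl and 142 in shBMAL1. The part of both genes in the results was not tested.

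In both knockdowns, every library lay below every shControl library for all 10 members. All 10 were called lower at an adjusted p under 0.1 in both comparisons, where 19.0% of the 15163 genes tested were called lower under shARNT and 19.4% of 19035 under shBMAL1. Groups that did not overlap, with the knockdown lower, were found for 23.0% and 22.9% of the tested genes. Since the members were selected on these same comparisons, nothing is read from these counts. The 3 control libraries serve in both comparisons, so their values enter both sets of changes. The median log2 change of the members was −0.84 under shARNT and −1.17 under shBMAL1, beside 0.0028 and 0.015 over all tested genes. In bulk RNA a lower level of a gene in each cell and fewer cells that express it cannot be told apart.

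**Figure D2:**
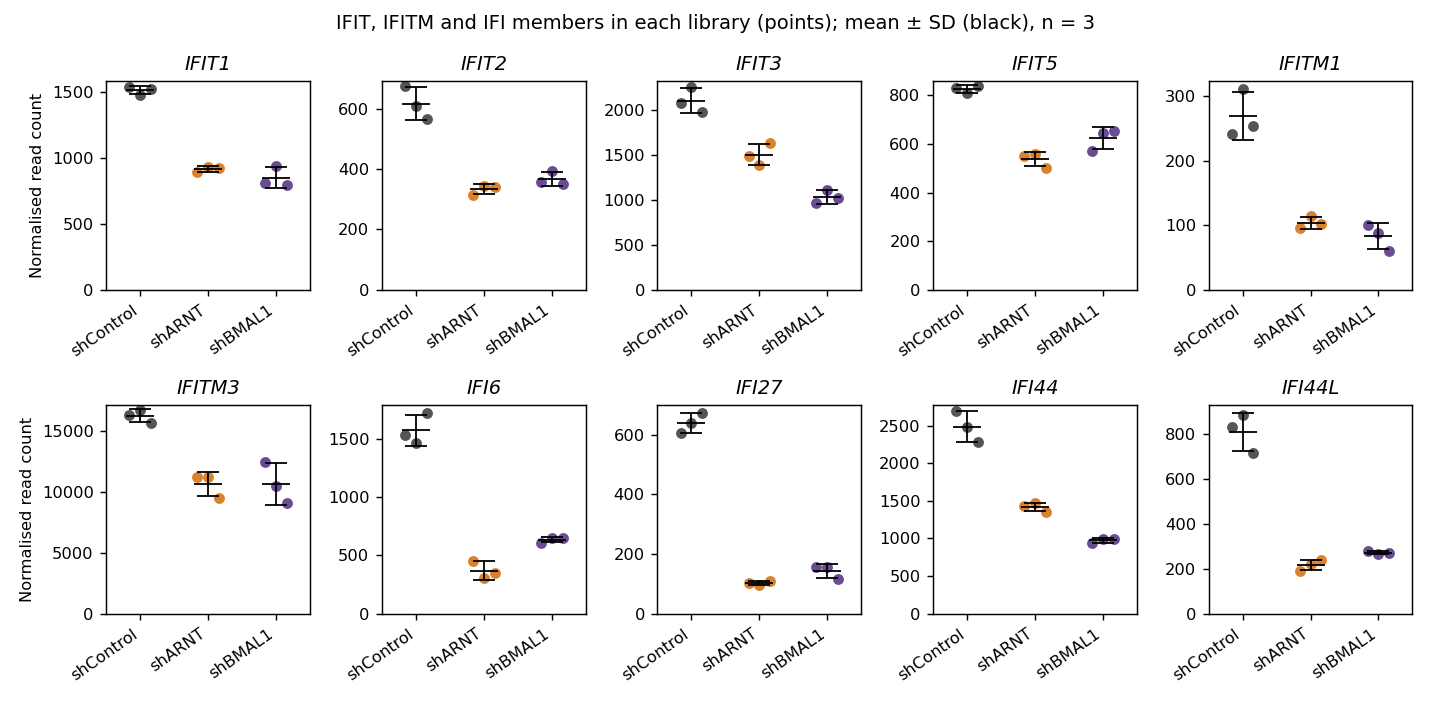
Normalised read counts (linear axis from 0) of the 10 members in each library, as points in replicate order, with mean ± SD in black (n = 3 libraries per group). In each panel the shARNT and shBMAL1 points lie below the shControl points, and the order of the knockdowns differs between genes, with IFI6 lowest in shARNT and IFI44 lowest in shBMAL1.

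The IFIT genes encode proteins with tetratricopeptide repeats that bind viral or other foreign RNA, or partner proteins that do so, and restrain its translation. The 4 members of this family lie in one cluster on chromosome 10, within 138 kb from 91043451 to 91181362 (GRCh37, plus strand), with IFIT1B between IFIT3 and IFIT1. IFIT1, which recognises RNA whose cap lacks a ribose methyl group, had 1534, 1476 and 1524 normalised counts in shControl. It had 893, 933 and 919 in shARNT. The shBMAL1 libraries had 810.2, 939 and 798. These groups were well apart from shControl, and the ranges of the knockdowns overlapped each other. The log2 changes were −0.72 (SE 0.07) under shARNT and −0.83 (SE 0.09) under shBMAL1, so IFIT1 stood at 60.5% and 56.2% of its control mean.

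IFIT2, a partner of IFIT1 and IFIT3 that is also known to promote cell death when abundant, had 673, 608 and 565 normalised counts in shControl. The shARNT libraries had 315, 344 and 341, and the shBMAL1 libraries 356, 392 and 351. Every shBMAL1 value was just above every shARNT value, and both groups were far below shControl. The changes were −0.88 (SE 0.11) and −0.75 (SE 0.12) on the log2 scale, in that order.

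IFIT3, which stabilises IFIT1 and promotes its binding to RNA, was lowest in shBMAL1. Its normalised counts were 2077, 2254 and 1974 in shControl. They were 1489.9, 1389.6 and 1626 in shARNT and 961, 1111 and 1017 in shBMAL1. The 3 groups formed separate ranges, with shARNT in the middle. Its log2 change was −0.48 (SE 0.08) under shARNT, the smallest of the 10 members there, and −1.03 (SE 0.09) under shBMAL1.

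IFIT5, a monomer that binds RNA with a 5′ phosphate, was the member least changed under shBMAL1. Its shControl libraries had 828, 808 and 840.1 normalised counts, those of shARNT 551, 558 and 503, and those of shBMAL1 572, 646 and 655. Here shBMAL1 was the middle group and no ranges overlapped. The changes were −0.62 (SE 0.09) under shARNT and −0.40 (SE 0.10) under shBMAL1 on the log2 scale.

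The IFITM genes encode small membrane proteins that hinder fusion of enveloped viruses with the cell. IFITM1, found mostly at the cell surface, lies at 310041 to 315272 on chromosome 11 (GRCh37, plus strand), and IFITM3, found in endosomes, at 319676 to 329475 on the minus strand. IFITM1 rests on the fewest counts of the 10 members, with 241, 311 and 254 normalised counts in shControl. It had 96.5, 114 and 101 in shARNT and 100.3, 87.7 and 60.7 in shBMAL1. The knockdown ranges overlapped, and shBMAL1 replicate 3 was the lowest library. The log2 changes were −1.37 (SE 0.18) and −1.70 (SE 0.20), which left the gene 2.58-fold and 3.25-fold lower than in shControl.

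IFITM3 was the most abundant member per length, as given further on, with 16342, 16768 and 15706 normalised counts in shControl. The shARNT libraries had 11214, 11269.7 and 9536, and the shBMAL1 libraries 12520.2, 10521 and 9081. The knockdown ranges overlapped almost fully and both stayed below shControl. Its log2 change was −0.61 under both hairpins (SE 0.06 under shARNT, SE 0.09 under shBMAL1). IFITM3 took 60.0% ± 0.451 of the normalised counts of all 10 members in the control libraries (SD, n = 3). The share was 65.9% ± 2.32 in shARNT and 68.0% ± 3.89 in shBMAL1, so a sum over the members mostly follows this gene. The summed normalised counts of the 10 members were 59.7% of control in shARNT and 57.9% in shBMAL1. Without IFITM3 they were 50.8% and 46.0%.

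Counts of the IFITM genes are uncertain because they share sequence with other annotated genes. Of the stretches of 31 bases in the longest annotated transcript, 42.6% of those of IFITM1 and 38.9% of those of IFITM3 also occur in another gene. For IFITM1 this is mostly an annotated gene without a symbol that overlaps it on the same strand over 21.1% of its exon bases (37.0% of the stretches), and for IFITM3 mostly IFITM1 (25.4%), and how the authors' counting divided such reads was not given in the sources used here. Added together, IFITM1, IFITM2 and IFITM3 had 18326 ± 604 normalised counts in shControl (SD, n = 3). Under shARNT the sum was 12455 ± 1081 and under shBMAL1 11930 ± 1877, with no overlap between shControl and either knockdown. IFI6 shares 21.4% of such stretches, mostly with LINC02574 on the same strand, and IFIT2 10.8%, with a gene without a symbol that overlaps 12.1% of its exon bases on the same strand. IFIT2 and IFIT3 also overlap LIPA on the opposite strand over 1.5% and 1.86% of their exon bases. The values for IFI44, IFI44L and IFIT5 are the least touched, at 0%, 0.0345% and 0.0747%.

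IFI6 and IFI27 encode small hydrophobic proteins of one family, IFI6 being known to limit flavivirus replication and cell death and IFI27 to reside in mitochondria and the nuclear envelope. IFI27 (chromosome 14, 94571182 to 94583032, GRCh37, plus strand) was the most lowered member under both hairpins. It had 606, 639.8 and 672 normalised counts in shControl, 102, 96.2 and 110.3 in shARNT, and 156, 157 and 117 in shBMAL1. All 3 groups were separate, with shBMAL1 replicate 3 close to the shARNT range. The log2 changes were −2.63 (SE 0.14) and −2.16 (SE 0.14), which is 6.19-fold and 4.47-fold lower than in shControl.

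IFI6 (chromosome 1, 27992575 to 27998723, GRCh37, minus strand) had 1534, 1462 and 1723 normalised counts in shControl. In shARNT it had 456, 303 and 349.9, and in shBMAL1 611, 647 and 651. The highest shARNT library was well below the lowest shBMAL1 library. Its log2 changes were −2.09 (SE 0.12) and −1.31 (SE 0.09), so the level was 4.24-fold lower under shARNT and 2.47-fold lower under shBMAL1.

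IFI44 and IFI44L are neighbouring, related genes on chromosome 1 (GRCh37, plus strand), at 79115481 to 79129763 and 79085587 to 79111830, and IFI44L is known as a feedback inhibitor of the antiviral response. IFI44 had 2691, 2484 and 2288 normalised counts in shControl, 1436, 1465 and 1354 in shARNT, and 940.3, 989.6 and 997 in shBMAL1. The groups were separate, with shBMAL1 lowest, and the log2 changes were −0.81 (SE 0.07) and −1.35 (SE 0.08).

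Its neighbour IFI44L had 831, 885 and 717 normalised counts in shControl, 190.0, 223 and 238 in shARNT, and 278, 268 and 271 in shBMAL1. These groups were separate too, but in the other order, with shARNT lowest. The log2 changes of IFI44L were −1.90 (SE 0.12) and −1.58 (SE 0.12).

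**Figure D3:**
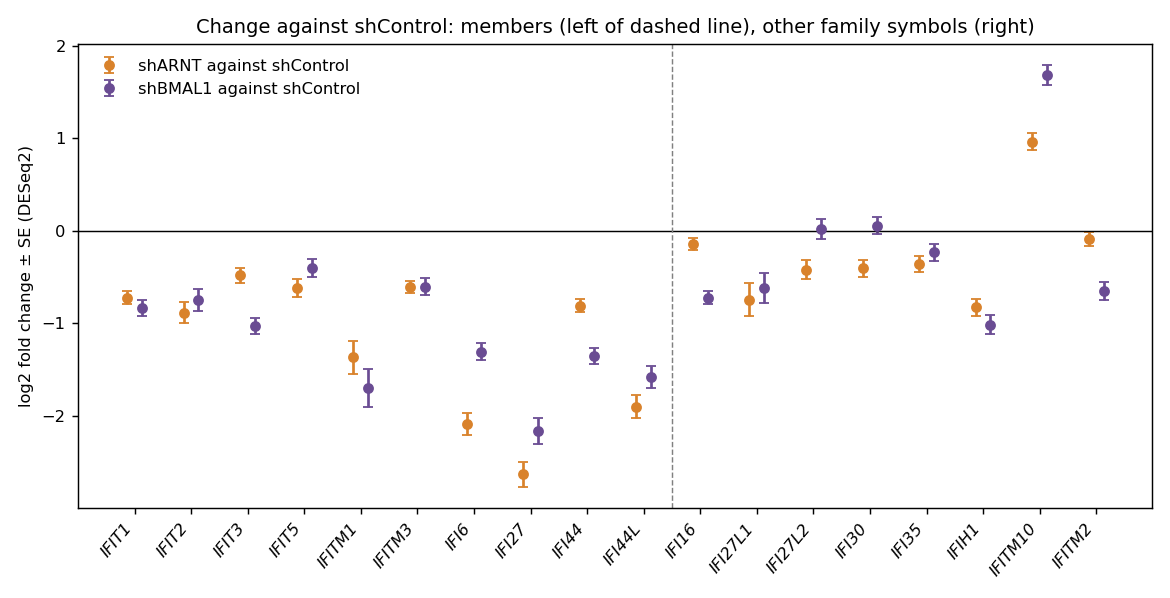
Log2 fold change against shControl with its SE (DESeq2, 6 libraries per comparison) for the 10 members, left of the dashed line, and for 8 other IFIT, IFITM and IFI family genes, right of it. The members lie between −0.40 and −2.63, while the other genes run from −1.01 for IFIH1 to 1.69 for IFITM10.

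Levels of different genes can be set side by side only per length. Scaled by all annotated exon bases, the order in shControl was IFITM3 (5722 normalised counts per kb), IFI6 (1680.4), IFI44 (1220.5), IFIT3 (415), IFIT1 (328), IFIT5 (189), IFITM1 (161), IFI27 (155), IFIT2 (142) and IFI44L (69.8). The ranges of the 3 control libraries overlapped between IFIT5 and IFITM1, between IFITM1 and IFI27, and between IFI27 and IFIT2, so these neighbours are not ordered. IFITM3, IFI6 and IFI44 stayed the first 3 and IFI44L the last when the canonical transcript was used instead, but IFI27 moved to rank 4 with 893 normalised counts per kb, next to IFIT3 at 879, whose range it overlapped. IFITM1 (402) then stood above IFIT1 (351) with no overlap of their ranges, the reverse of the order by all exon bases, so the order of these genes depends on the length used. The spread between replicates was modest, with a median coefficient of variation over the members of 7.42% in shControl and of 7.38% and 7.32% in shARNT and shBMAL1. The widest spread was 24.4%, for IFITM1 in shBMAL1.

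The direct comparison of shBMAL1 with shARNT asks whether the 2 hairpins left the members at different levels, and it uses no control library. At an adjusted p under 0.1, 2 members were lower in shBMAL1, IFIT3 and IFI44, and 3 were higher, IFI6, IFI27 and IFI44L. Over the 18180 genes tested, 18.0% were called lower and 17.3% higher, so the members' shares, 20% and 30%, are near the background in the lower direction and rest on 3 genes in the higher. The median log2 difference of the members was 0.07, beside 0.0094 over all tested genes.

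IFI6 differed most, with a log2 difference of 0.78 (SE 0.14, DESeq2 adjusted p = 1.52e-07), which is 1.72-fold higher in shBMAL1. IFIT3 was lower by −0.55 (SE 0.09, DESeq2 adjusted p = 6.53e-08) and IFI44 by −0.54 (SE 0.08, DESeq2 adjusted p = 1.66e-09). For these 3 genes every shBMAL1 library lay on one side of every shARNT library, and the calls held in every alternative except that a minimum change of 1.5-fold kept IFI6 alone.

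IFI27 and IFI44L were called on a thinner margin. IFI27 was higher by 0.47 (SE 0.21, DESeq2 adjusted p = 0.0705), and the call was lost without any 1 of shARNT replicates 1, 2 and 3 or shBMAL1 replicates 1 and 2, where the adjusted p was 0.116 to 0.251. IFI44L was higher by 0.33 (SE 0.15, DESeq2 adjusted p = 0.0848), and its call was lost without shARNT replicate 1 or 2 or any 1 of the shBMAL1 libraries, where the adjusted p was 0.159 to 0.346, and with no independent filtering (adjusted p = 0.115).

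For the other 5 members no difference between the hairpins was called, and the intervals say how large one could be. The 95% interval of the log2 difference ran from −0.30 to 0.08 for IFIT1, from −0.11 to 0.39 for IFIT2 and from −0.19 to 0.20 for IFITM3. It was widest for IFITM1, from −0.81 to 0.15. IFIT5 was nearest to a call, with 0.22 (SE 0.11, DESeq2 adjusted p = 0.125) and groups that did not overlap, and it was called by edgeR's quasi-likelihood test (adjusted p = 0.0832), with the filter of 10 counts (0.0882), in 1 fit of all 9 libraries (0.0693) and without shBMAL1 replicate 1 (0.0622).

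**Figure D4:**
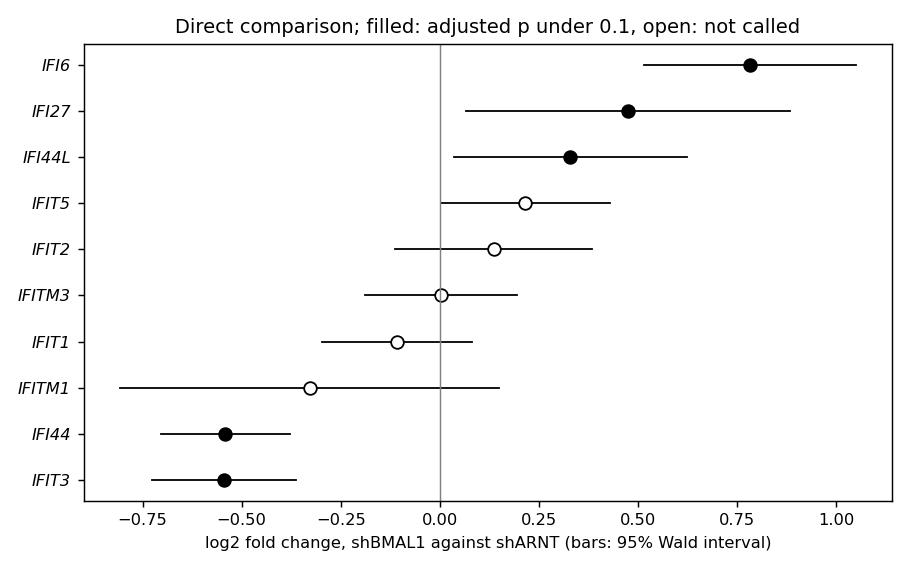
Log2 fold change of the 10 members in shBMAL1 against shARNT with 95% Wald intervals (DESeq2, 3 libraries per group). Filled points passed an adjusted p under 0.1 and open points did not. IFI6 stands at the upper end with 0.78, and IFIT3 and IFI44 at the lower end with −0.55 and −0.54.

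The other genes of the same symbol families, 10 in the table, were described in the same way. IFIT1B and IFITM5 had at most 3.92 and 0.982 normalised counts in any library. Of the 8 tested under shARNT, 6 were called lower and 1 higher, beside a background of 19.0% lower and 16.5% higher. Under shBMAL1, 5 of 9 were called lower and 1 higher, beside 19.4% lower and 17.4% higher.

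IFIH1, which encodes the RNA sensor MDA5, fell in both, by 0.83 (SE 0.09, DESeq2 adjusted p = 1.27e-16) and 1.01 (SE 0.10, DESeq2 adjusted p = 4.39e-22) on the log2 scale. IFI16, a sensor of DNA, fell by 0.72 under shBMAL1 (DESeq2 adjusted p = 3.62e-21). Its fall of 0.14 under shARNT (DESeq2 adjusted p = 0.0633) was lost without shControl replicate 2 or 3 or shARNT replicate 2 or 3, with an adjusted p of up to 0.290. In the direct comparison IFI16 was lower in shBMAL1 (−0.58, DESeq2 adjusted p = 1.97e-13), as IFIT3 and IFI44 were.

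IFITM10 was higher in both knockdowns. Its normalised counts were 608, 575 and 526 in shControl, 1164, 1126 and 1035 in shARNT, and 2067, 1831 and 1609 in shBMAL1. In the annotation 22.2% of its exon bases are shared with another gene on the same strand. The groups did not overlap, and the log2 changes were 0.96 (DESeq2 adjusted p = 1.38e-23) and 1.69 (DESeq2 adjusted p = 1.05e-55). IFITM2, which stands beside IFITM1 and IFITM3, had 1667, 1885 and 1803 in shControl and 1752, 1712 and 1570.4 in shARNT, a change of −0.09 that was not called (DESeq2 adjusted p = 0.424). It was lowered by shBMAL1, with a log2 change of −0.65 (DESeq2 adjusted p = 1.71e-10), and it was lower than in shARNT by −0.56 (DESeq2 adjusted p = 5.19e-08), subject to the shared sequence of this family.

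IFI30, a lysosomal reductase, and IFI27L2 differed between the hairpins in the other direction. Under shARNT they fell by 0.40 (DESeq2 adjusted p = 0.000111) and 0.42 (DESeq2 adjusted p = 0.000442) on the log2 scale, and under shBMAL1 their changes of 0.05 and 0.02 were not called. In the direct comparison both were higher in shBMAL1, with a log2 difference of 0.46 (DESeq2 adjusted p = 1.69e-05) for IFI30 and 0.45 (DESeq2 adjusted p = 0.00046) for IFI27L2. Of the exon bases of IFI30, 42.5% are shared with another annotated gene on the same strand. IFI27L1 fell by 0.74 and 0.62 (DESeq2 adjusted p = 0.000208 and 0.000992). IFI35 fell by 0.36 under shARNT (DESeq2 adjusted p = 0.000544). Its fall of 0.23 under shBMAL1 (DESeq2 adjusted p = 0.0471) was lost without shControl replicate 2 or 3 or shBMAL1 replicate 1 or 3, with an adjusted p of up to 0.170.

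The signalling genes upstream of the members were read from ligand to factor. Of 9 interferon genes, 6 had a count of 0 in all libraries. IFNB1 had 1 read in 1 shControl library, IFNL1 had at most 4 counts in shControl and 0 in the 6 knockdown libraries, and IFNE had at most 13.7 normalised counts. None of the 9 had enough counts to be tested under shARNT, and under shBMAL1 only IFNE was tested and it was not called (DESeq2 adjusted p = 0.264). Of 6 receptor genes, 3 were called lower and 2 higher under shARNT, and 1 lower and 2 higher under shBMAL1. Over all tested genes, 19.0% were called lower and 16.5% higher under shARNT, and 19.4% and 17.4% under shBMAL1. IL10RB, a chain of the type III receptor, fell by 0.24 and 0.34 (DESeq2 adjusted p = 0.00307 and 0.000202), and its partner IFNLR1 was not called. The type I receptor gene IFNAR1 was higher by 0.21 under shARNT (DESeq2 adjusted p = 0.0101) and its partner IFNAR2 lower by −0.16 (DESeq2 adjusted p = 0.0892), the latter a call lost without any 1 library of either group but shControl replicate 1, with an adjusted p of up to 0.343. Under shBMAL1, IFNAR1 was higher by 0.25 (DESeq2 adjusted p = 0.0622), a call lost without shControl replicate 2 or 3 or shBMAL1 replicate 2 or 3, with an adjusted p of up to 0.357. Of the receptor of interferon gamma, IFNGR1 was higher by 0.21 under shARNT (DESeq2 adjusted p = 0.0398), a call lost without shControl replicate 1 or 2 or shARNT replicate 2, with an adjusted p of up to 0.226. IFNGR2 was lower by −0.14 under shARNT (DESeq2 adjusted p = 0.0935), a call lost without any 1 of the shControl libraries or shARNT replicate 3, with an adjusted p of up to 0.438. Under shBMAL1 IFNGR2 was higher by 0.25 (DESeq2 adjusted p = 0.0165), a call lost without shBMAL1 replicate 2 (adjusted p = 0.134).

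JAK1 and TYK2 fell by 0.18 and 0.23 under shARNT (DESeq2 adjusted p = 0.00168 and 0.000732), and neither was called under shBMAL1. JAK2, the third kinase listed, was lower by −0.28 under shBMAL1 (DESeq2 adjusted p = 0.0743), a call lost without any 1 library of either group but shBMAL1 replicate 2, with an adjusted p of up to 0.299.

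Among the factors, IRF9, IRF7 and STAT2 fell in both knockdowns. IRF9 had 1244, 1387 and 1246 normalised counts in shControl, 699, 789.5 and 655 in shARNT, and 822, 695 and 726 in shBMAL1, with log2 changes of −0.85 (DESeq2 adjusted p = 4.66e-19) and −0.79 (DESeq2 adjusted p = 8.44e-15). IRF7, a factor that amplifies interferon production, fell from a mean of 232 to 73.4 and 80.1, which is −1.65 (DESeq2 adjusted p = 5.24e-16) and −1.53 (DESeq2 adjusted p = 3.57e-14). IRF3 fell by 0.29 and 0.46 (DESeq2 adjusted p = 0.00127 and 2.42e-06), and STAT2 fell by 0.19 and 0.20 (DESeq2 adjusted p = 0.00234 and 0.00734). IRF1 fell by 0.27 under shBMAL1 (DESeq2 adjusted p = 0.00206) and by 0.14 under shARNT (DESeq2 adjusted p = 0.0964), where the call was lost without any 1 library of either group but shControl replicate 3, with an adjusted p of up to 0.337. IRF2 and IRF5 were called in neither knockdown. Under shARNT their log2 changes were 0.11 and 0.0024 (DESeq2 adjusted p = 0.508 and 0.991). Their means were 498 and 465 normalised counts in shControl, and 424 and 429 in shBMAL1. All of these are transcript levels, and phosphorylation was not measured.

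USP18, an ISG whose product dampens signalling at the receptor, had 644, 666 and 623 normalised counts in shControl, 353, 355 and 391 in shARNT, and 277, 262 and 244 in shBMAL1. It fell by 0.81 (DESeq2 adjusted p = 5.07e-13) and 1.31 (DESeq2 adjusted p = 1.39e-26) on the log2 scale, and it was lower in shBMAL1 than in shARNT by −0.49 (DESeq2 adjusted p = 0.00143). None of the other 3 brakes on the pathway was called lower in either knockdown. PIAS1 rose by 0.29 under shARNT (DESeq2 adjusted p = 0.00087), with no call under shBMAL1 (0.15, DESeq2 adjusted p = 0.196). SOCS3 rose by 0.40 under shARNT (DESeq2 adjusted p = 0.0697), a call lost without shControl replicate 1 or 2 or shARNT replicate 1 or 3, with an adjusted p of up to 0.316, and was not called under shBMAL1 (−0.17, DESeq2 adjusted p = 0.573). SOCS1 had group means of 39.6, 29.2 and 23.9 in shControl, shARNT and shBMAL1, and was called in neither (DESeq2 adjusted p = 0.441 and 0.164).

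A list of 66 other well-known ISGs, which holds STAT2, IRF7, IRF9 and USP18 as well, was described beside the members. Under shARNT, 54 of 63 tested genes were lower and 3 higher, with a median log2 change of −0.43. Under shBMAL1, 49 of 65 were lower and 6 higher, with a median of −0.57. The background for these counts is the same as for the members, 19.0% lower and 16.5% higher under shARNT and 19.4% lower and 17.4% higher under shBMAL1. With a minimum change of 1.5-fold, 23 were called under shARNT (22 lower, 1 higher) and 32 under shBMAL1 (31 lower, 1 higher). The share of all genes that pass this minimum was not counted, so nothing is read from these 2 counts. In the direct comparison 19 of 64 were lower in shBMAL1 and 7 higher, beside 18.0% and 17.3% of all genes.

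The most lowered of these genes with a mean of at least 50 under shARNT were OAS2 (−3.87), EPSTI1 (−2.69) and MX2 (−2.53), with OAS1 tied with MX2 (−2.53). Under shBMAL1 they were OAS2 (−4.11), MX2 (−3.42) and OAS1 (−3.0). OAS2 changed more than any of the 10 members under both hairpins. OAS1 and OAS2 make the messenger that activates RNase L, and MX2 restrains viruses that enter the nucleus. OAS2 had 1164, 1078 and 1183 normalised counts in shControl, 64.3, 89.4 and 79.5 in shARNT, and 63.5, 77.6 and 57.8 in shBMAL1. The most raised were GBP2 (1.00), TRIM38 (0.50) and TRIM5 (0.24) under shARNT, and GBP2 (1.03), APOL1 (0.50) and TRIM38 (0.41) under shBMAL1. GBP2, an interferon-induced GTPase, had a mean of 170.0 normalised counts in shControl and of 338 and 349 in the knockdowns. APOL1 fell by 0.25 under shARNT (DESeq2 adjusted p = 0.000517), and the difference between the hairpins was 0.76 (DESeq2 adjusted p = 2.04e-27).

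**Figure D5:**
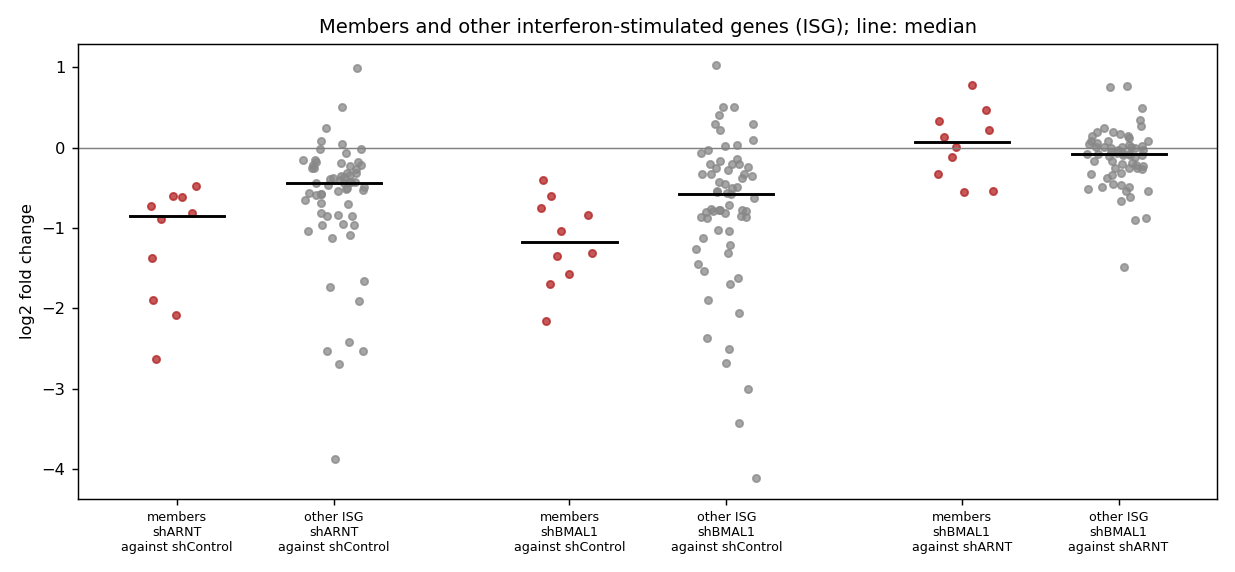
Log2 fold changes of the 10 members (red) and of the tested genes among 66 other interferon-stimulated genes (ISG, grey) in the 3 comparisons, 1 point per gene, with the median as a black line. The other ISGs reach from −3.87 to 1.00 under shARNT and from −4.11 to 1.03 under shBMAL1, and both sets sit near 0 in the direct comparison, with medians of 0.07 and −0.08.

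Within the set, the profiles over the 9 libraries were alike in the fall from shControl and differed in the order of the knockdowns. The fall was part of the choice of members, so their likeness follows from that choice and nothing is read from it. The correlation of each member with the mean of the other members, on log2 values, was lowest for IFIT3 (0.800) and highest for IFIT1 (0.981). Of 12908 genes with a mean of at least 50, those whose profile was most like the mean of the members were OAS2 (0.996), WI2-87327B8.2 (0.994), TNFRSF10B (0.992), PARP12 (0.990) and LOC107987338 (0.989). TNFRSF10B encodes a receptor for the death ligand TRAIL and PARP12 an interferon-induced ADP-ribosyltransferase. These coefficients run over 9 libraries that fall into 3 groups and share the same controls, so they describe the pattern of the groups and carry no p.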

How the data were processed

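Per the labels and the paper's methods, RNA was prepared with a column kit, made into stranded mRNA libraries and read as pairs of 100 bases on a BGISEQ instrument. The methods name SeqMan NGen and ArrayStar with GRCh37, whereas the submitters' processing notes list STAR, DESeq2 and hg38, so which of these made the table is not settled. Neither the gene annotation nor whether counting used strand was given in the sources used here. The authors deposited estimated counts, in which 0.009 stood in for 0 (46.3% of cells) and 6.14% of the other values were fractional, none of them for a member. Values were set to 0 or rounded to whole numbers, and 55 rows that shared a name were added to their namesakes, which left 38019 genes. In 28 rows the symbol had become a date, and these were not named.

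Each comparison was fitted on its 6 libraries in DESeq2 1.42.0 (R 4.3.3), with Wald tests, its independent filter set at 0.1, and p-values adjusted by Benjamini and Hochberg's method over all tested genes. A call is an adjusted p under 0.1, as in the study, and all tests are two-sided. Normalised counts are counts divided by size factors over all 9 libraries (0.989 to 1.03). The fit was tested on simulated data. The members, gene lists and named genes were chosen with earlier results of these data known. Named genes were the members, all other symbols of the families, the targets, the main signalling genes (1 of these is not reported here), the 3 most lowered and 3 most raised ISGs per knockdown with a mean of at least 50, and the 5 genes most like the members. PIAS1, SOCS3, IL10RB, IFNLR1, IFNGR1, IFNGR2, JAK2, IRF2, IRF3, IRF5 and the single marker genes were named after their values were seen. Alternatives were edgeR's quasi-likelihood test (4.0.16), TMM factors in DESeq2, a filter of 10 counts in 3 libraries, no independent filtering, 1 fit of all 9 libraries, a replicate block, each library left out, an adjusted p under 0.05, a 1.5-fold minimum and other gene lengths. Gene positions came from GENCODE lifted to GRCh37 and promoters from RefSeq on GRCh38.p14, where 9 of 10 members matched. Same-group libraries differed beyond sampling noise (chi-square per degree of freedom 7.60 to 17.6), so none was counted as a copy.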

Additional observations from a re-analysis of the deposited data

How the results depend on the processing

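Against shControl, all 10 members were called lower in each alternative except the 1.5-fold minimum, which kept 9 under each hairpin (without IFIT3 under shARNT and without IFIT5 under shBMAL1). The members were selected on these contrasts in the same libraries, so this says nothing about stability. In the direct comparison the count of members called went from 5 to 3 at an adjusted p under 0.05 and to 1 with a 1.5-fold minimum, and ran from 3 to 4 when 1 library was left out (3 without shARNT replicate 1 or 2 or shBMAL1 replicate 2). For the other ISGs the 1.5-fold minimum left 23 called under shARNT, 32 under shBMAL1 and 6 in the direct comparison (4 lower, 2 higher). Leaving out 1 library gave 48 to 54, 52 to 56 and 21 to 25. The share of all genes called was not counted for these alternatives, so nothing is read from these counts.

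Replicate numbers are shared between groups, but same-numbered libraries did not deviate together (correlations of −0.150 to 0.0739, −0.154 to 0.105 and −0.0104 to 0.0591 in the 3 comparisons). No pairing by number was seen, but with 3 libraries per group this cannot exclude that same-numbered libraries were prepared together. With the replicate block, 3 members were called in the direct comparison, IFIT3, IFI6 and IFI44, and all 10 against shControl. The block also ended the calls of IFI27 and IFI44L (adjusted p = 0.195 and 0.193), of IFI16, IRF1, IFNAR2, IFNGR1, IFNGR2 and SOCS3 under shARNT (0.133, 0.188, 0.207, 0.126, 0.148 and 0.178), and of IFI35, IFNAR1 and JAK2 under shBMAL1 (0.133, 0.128 and 0.170). Under shARNT, no independent filtering ended those of IRF1, IFNAR2, IFNGR2 and SOCS3 (0.151, 0.140, 0.146 and 0.110), 1 fit of all 9 libraries those of IRF1, IFNGR2 and IFI16 (0.128, 0.203 and 0.1004), and the filter of 10 counts that of IRF1, at the threshold.

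Values near 0 changed sign without being called. The direct difference of IFITM3 was −0.00448 with the replicate block, −0.08 without shARNT replicate 3 and −0.12 without shBMAL1 replicate 1, and ran from −0.12 to 0.11 over the libraries left out. IFI27L2 was −0.018 under shBMAL1 without its replicate 1 (range −0.018 to 0.085), and JAK1 was 0.018 and 0.00079 under shBMAL1 without shControl replicate 2 and shBMAL1 replicate 1 (range −0.0399 to 0.018). The cause was not tested. The order of levels by length is limited by the gene models. The canonical length was added after the data were seen.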
